A study of Mus musculus with 12 samples.

Results

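Messenger RNA of 10 genes that glucocorticoids or fasting are known to induce was followed through a study of mouse hepatocytes with active YAP, the transcriptional coactivator that the Hippo kinases hold in check. The genes were chosen by name: Tsc22d3, Ddit4, Fkbp5, Lpin1, G6pc, Tat, Mt1, Mt2, Ppargc1a and Igfbp1. Of the 10, Mt2 was not analysed here, and the other 9 all passed the filter on low values, a log2 level of at least 1 in at least 2 libraries, among 10681 of 16116 gene symbols. The table holds 12 libraries in 6 groups of 2, from an amplicon panel that reads 1 fragment per gene, and its values are log2 CPM, that is, on a log2 scale after scaling each library for its total. The title of the series gives its question as the role of the transcription factor Sox9 in such cells.

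The YAP experiment has 3 groups, sorted 3 weeks after viral injection. Mice with floxed Sox9 on both alleles (Sox9 fl/fl, here the Sox9-null YAP group) or on 1 allele (Sox9 fl/+, the Sox9-heterozygous YAP group) received AAV2/8-TBG-Cre together with AAV2/8-TBG-YAP S127A-P2A-GFP, which makes a YAP mutant that escapes inhibition by the Hippo kinases. Wild type mice with AAV2/8-TBG-GFP alone are the wild type control. The Mst experiment also has 3 groups, sorted 4 weeks after injection, and all of them carry Mst1 fl/fl, Mst2 fl/fl and ROSA26-lsl-TdTomato, that is, floxed Hippo kinase genes and a Cre-dependent red reporter. With AAV2/8-TBG-Cre and Sox9 fl/fl they are the Sox9-null Mst group, with AAV2/8-TBG-Cre and Sox9 fl/+ the Sox9-heterozygous Mst group, and with AAV2/8-TBG-GFP and no floxed Sox9 allele named the floxed control. All mice were injected behind the eye at 3 weeks of age, TBG is a promoter active in hepatocytes, and cells positive for GFP or TdTomato and negative for Epcam and CD45 were sorted. The controls received no Cre, so a difference from a control holds Cre, the Sox9 deletion and YAP activation together, and these cannot be told apart. The labels name no feeding state, hour of death or hormone measurement.

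Glucocorticoids bind the glucocorticoid receptor, a transcription factor that moves to the nucleus and acts on genes for fuel release, for stress protection and for its own feedback. In the fasted liver the same hormones act with glucagon, through cyclic AMP and CREB, while the fall of insulin frees FOXO factors, so that gluconeogenesis is switched on and fat synthesis is switched off. Several of these genes also follow the time of day and short-term stress, and they can differ between animals that were fed or handled differently.

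Summed linear values ran from 879620 to 1011693 per library, and the 4 control libraries had the lowest sums, at most 920020 against at least 938683 in the others, so scale moved with activation. No read depth is given. Gene by gene the table holds the same mean in both controls, to within 0.0437 log2 for each of the 9 genes, so an order of groups across the experiments rests on that step. The spread between the libraries of a group had been multiplied by a factor for each gene, from 0.892 to 2.91 for these genes, and no label states whether a group's libraries stem from different mice. P-values here thus reflect library spread alone, perhaps technical. The hepatocyte markers summed to 53200 to 93800 CPM in every library, and 7 of 8 T, NK and B cell markers lay below log2 0 in all 12 libraries. All 13 endothelial markers had a positive change in each of the 4 activated groups, and their sums ran from 181 to 330 CPM in the Sox9-null YAP group and 119 to 190 in the Sox9-heterozygous YAP group, against 31.9 to 76 in the wild type control. They ran from 390 to 429 CPM in the Sox9-null Mst group and 372 to 513 in the Sox9-heterozygous Mst group, against 47.3 to 50 in the floxed control. Macrophage markers, 12 in number, summed to 79.9 to 342 CPM in the Sox9-null and 51 to 158 in the Sox9-heterozygous Mst group, against 35.8 to 49.7 in the floxed control. The 11 cholangiocyte markers, a list that holds Sox9 itself, summed to 1340 to 1450 CPM in the Sox9-null and 1840 to 2520 in the Sox9-heterozygous YAP group, against 169 to 370 in the wild type control. After Mst deletion the sums were 3690 to 3830 CPM (Sox9-null) and 3170 to 3280 (Sox9-heterozygous), against 237 to 250 in the floxed control. The list's median level there was 0.85 and 0.82 log2 CPM (Sox9-null) and 0.83 and 1.05 (Sox9-heterozygous), against 0.83 in both floxed control libraries. Under YAP S127A it was 1.51 and 1.92 (Sox9-null) and 2.92 and 2.14 (Sox9-heterozygous), against 0.83 in both wild type libraries. Of the 11 markers 6 passed the filter, and 3 lay below log2 0 in all 12 libraries. Spp1 and Pkhd1 of that list rose in all 4 activated groups. Epcam, for which sorted cells were negative, rose in the Sox9-heterozygous YAP group (change 1.81 ± 0.41, limma adjusted p = 0.0349). Against the wild type control Sox9 did not pass in either YAP group. Sox9 fell in the Sox9-null Mst group (change -2.38 ± 0.38) and rose in the Sox9-heterozygous Mst group. Of 10 stellate cell markers, Dcn rose in both Mst groups (change 2.59 ± 0.51, adjusted p = 0.00478 with Sox9 null; 2.25 ± 0.51, 0.0185 with 1 allele floxed). The part of these cells in the changes below was not tested. In bulk RNA, fewer cells of a type and less RNA per cell cannot be told apart.

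The promoters of 5 of these genes are shown with the short motif for which each gene's class of signal is known, as a guide to the genes and not as evidence for a site. They run from 250 bases before to 50 bases after the start site, 5′ to 3′, from RefSeq on GRCm38.p6. Capitals mark the glucocorticoid receptor core TGTTCT in Lpin1 (chr12:16610917-16611216, minus strand), the insulin response core CAAAACA in Igfbp1 (chr11:7197537-7197836, plus strand) and in G6pc (chr11:101367466-101367765, plus strand, where it reads on the other strand), the cyclic AMP response core TGACG in Ppargc1a (chr5:51567676-51567975, minus strand, on the other strand) and the metal response core TGCACNC or TGCGCNC in Mt1 (chr8:94178839-94179138, plus strand).
Lpin1: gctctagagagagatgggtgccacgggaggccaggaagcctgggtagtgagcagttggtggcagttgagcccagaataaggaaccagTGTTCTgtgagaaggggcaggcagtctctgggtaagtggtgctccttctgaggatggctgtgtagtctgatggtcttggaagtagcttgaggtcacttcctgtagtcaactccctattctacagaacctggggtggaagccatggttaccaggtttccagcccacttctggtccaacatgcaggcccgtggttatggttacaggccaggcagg
Igfbp1: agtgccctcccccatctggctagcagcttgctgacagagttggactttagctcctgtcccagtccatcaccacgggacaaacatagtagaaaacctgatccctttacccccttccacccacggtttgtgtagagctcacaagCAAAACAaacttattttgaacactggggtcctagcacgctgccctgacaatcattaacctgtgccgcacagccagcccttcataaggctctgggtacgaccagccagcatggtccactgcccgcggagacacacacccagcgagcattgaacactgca
G6pc: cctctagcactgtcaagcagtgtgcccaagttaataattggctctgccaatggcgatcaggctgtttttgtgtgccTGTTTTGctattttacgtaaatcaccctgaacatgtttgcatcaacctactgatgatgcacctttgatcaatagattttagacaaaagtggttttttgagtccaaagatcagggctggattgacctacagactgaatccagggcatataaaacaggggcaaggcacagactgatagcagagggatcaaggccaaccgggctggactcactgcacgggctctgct
Ppargc1a: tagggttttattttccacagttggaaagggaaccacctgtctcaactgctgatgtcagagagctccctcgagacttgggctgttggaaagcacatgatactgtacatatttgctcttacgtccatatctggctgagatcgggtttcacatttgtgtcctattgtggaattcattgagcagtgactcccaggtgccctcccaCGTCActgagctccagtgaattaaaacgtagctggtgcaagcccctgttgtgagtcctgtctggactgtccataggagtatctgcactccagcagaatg
Mt1: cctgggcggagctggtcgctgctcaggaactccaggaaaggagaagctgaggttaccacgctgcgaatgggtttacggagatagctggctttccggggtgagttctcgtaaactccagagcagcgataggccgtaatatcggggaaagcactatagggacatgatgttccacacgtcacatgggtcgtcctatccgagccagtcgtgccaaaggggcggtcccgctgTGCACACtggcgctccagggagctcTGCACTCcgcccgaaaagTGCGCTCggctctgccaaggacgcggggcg

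Both strands of all 32851 promoters of this length in the table were searched, and the 9 genes held 11 of them, since Tsc22d3 has 3 start sites. The full palindrome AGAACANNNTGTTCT, which contains the receptor core on each strand, stood in 0.00913% of promoters and in 0 of the 11. The receptor core stood in 19% of promoters and in 2 of the 11, at -163 in Lpin1 and at -185 from the upstream start of Tsc22d3. The insulin response core, at -108 in Igfbp1 and -174 in G6pc, stood in 6.28%, and the FOXO site TGTTTAC in 3.65% and in 0 of the 11. The cyclic AMP response core stood in 20.8% of promoters and in 3 of the 11, at -49 in Ppargc1a. Mt1 held 3 copies of the metal core, at -23, 2 and 20, and 1.97% of promoters held as many, while the TEAD site CATTCC, through which YAP acts, stood in 14.7% and in 0 of the 11. These matches describe letters in this window and no more.

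**Figure D1:**
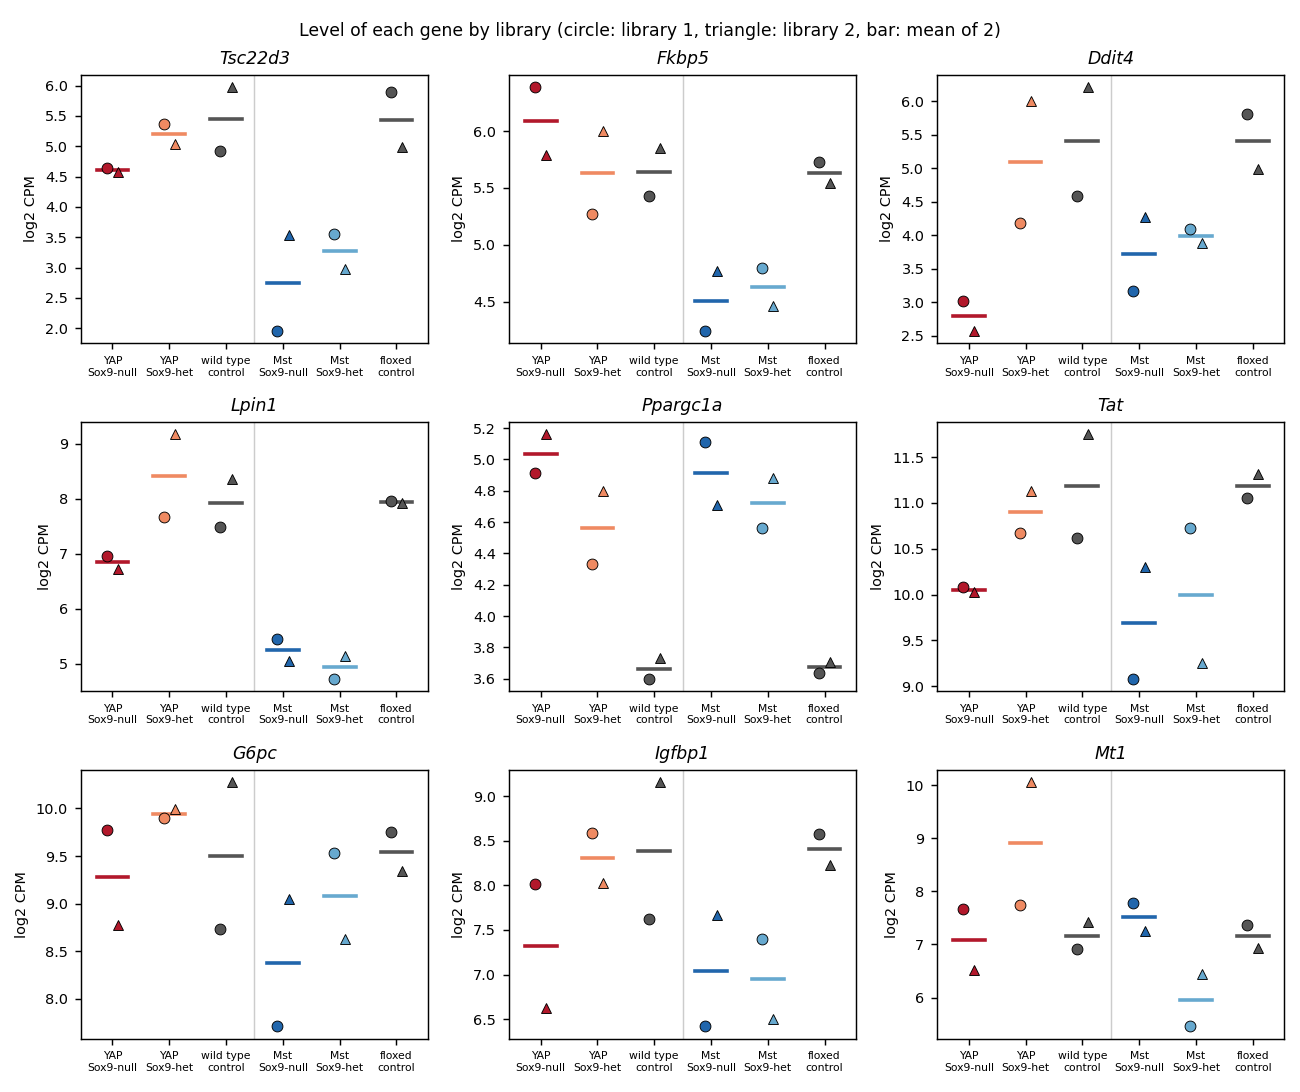
Level of each of the 9 genes in log2 CPM (y axes, each gene on its own scale) by group; circles are the first and triangles the second library, and bars are the mean of 2. Lpin1, Tsc22d3 and Fkbp5 are low in both Mst groups (Lpin1 at 4.73 to 5.45 there, against 7.93 and 7.95 in the floxed control), Ddit4 is lowest in the Sox9-null YAP group, and Ppargc1a is higher in all 8 activated libraries than in the 4 controls.

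More of these genes passed the test after deletion of the Hippo kinases, 4 and 3 of 9, than under YAP S127A, 2 and 0 of 9. In the Sox9-null Mst group Tsc22d3, Lpin1 and Fkbp5 fell and Ppargc1a rose, 3 and 1 of 9, where 0.88% and 6.88% of all genes tested were called lower and higher. The Sox9-heterozygous Mst group had lower Lpin1 and Tsc22d3 and higher Ppargc1a, 2 and 1 of 9, against 0.796% and 3.45% of all genes. The Sox9-null YAP group had lower Ddit4 and higher Ppargc1a, 1 of 9 each, against 0.477% and 6.64%. For the Sox9-heterozygous YAP group 0 of 9 passed in limma, against 1.57% of all genes in either direction, and 2 of the 9 had an unadjusted p under 0.05, as had 1131 of the 10681 genes. The median change of the 9 genes was -1.36 in the Sox9-null Mst group, -1.21 in the Sox9-heterozygous Mst group, -0.84 in the Sox9-null YAP group and -0.01 in the Sox9-heterozygous YAP group, where the medians over all genes were 0.17, 0.08, 0.21 and 0.07. With only the libraries of the groups compared in the fit, the members that passed numbered 8 (Sox9-null Mst), 7 (Sox9-heterozygous Mst) and 1 (Sox9-null YAP), where 1668, 860 and 297 of all genes passed. Calls here and below are at an adjusted p under 0.05 from limma, two-sided, with Benjamini-Hochberg adjustment over all 10681 genes, and ± after a change is its SE. With library medians made equal or quantile normalization, the higher genes made up 80.2% or 78.4% of all calls in the Sox9-null YAP group, against 93.3% as deposited, and 73.9% or 73.6% in the Sox9-null Mst group, against 88.7%. The number of the 9 genes with a negative change in these comparisons stayed at 7.

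The difference in these counts between the experiments was itself not tested. Gene by gene, the change in the Sox9-heterozygous Mst group minus that in the Sox9-heterozygous YAP group was -0.91 ± 0.72 for Tat and for G6pc (adjusted p = 0.836 each), -1.37 ± 0.74 for Igfbp1 (0.706), -1.10 ± 0.79 for Ddit4 (0.813), -1.0 ± 0.43 for Fkbp5 (0.599) and 0.14 ± 0.37 for Ppargc1a (0.972). Those of Lpin1, Tsc22d3 and Mt1 stand with each gene. With the deviations before the rescaling of spread, the difference of Igfbp1 had an adjusted p of 0.0298. Since the control means are equal in the table, such a difference is in effect one between the heterozygous groups, which also differ in virus, reporter and weeks after injection.

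Lpin1 encodes lipin 1, a phosphatidate phosphatase of triglyceride synthesis that also acts as a nuclear coactivator with PGC-1alpha, and its hepatic transcript is induced by fasting and glucocorticoids. The gene lies on chromosome 12, 16535669 to 16610966, minus strand (GRCm38, GENCODE M21). It stood at 5.45 and 5.06 log2 CPM in the Sox9-null Mst libraries and at 4.73 and 5.14 in the Sox9-heterozygous Mst libraries, against 7.95 and 7.93 in the floxed control. All 4 mutant libraries lay more than 2 log2 units below both control libraries. Lpin1 fell by 2.68 ± 0.39 in the Sox9-null Mst group (6.41-fold lower, adjusted p = 0.000377) and fell by 3.00 ± 0.39 in the Sox9-heterozygous Mst group (8.01-fold lower, adjusted p = 0.000212). Counted from the lowest estimate, Lpin1 ranked 22 of the 10681 genes in the Sox9-null and 9 in the Sox9-heterozygous comparison. Both calls held under each alternative run and without each library in turn. With single libraries left out, the changes ran from -2.88 to -2.49 in the Sox9-null and from -3.21 to -2.80 in the Sox9-heterozygous group. Over all runs the lowest Sox9-null change was -2.92.

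The YAP experiment gave Lpin1 another pattern. It stood at 6.96 and 6.73 log2 CPM in the Sox9-null YAP libraries and at 7.67 and 9.17 in the Sox9-heterozygous YAP libraries, against 7.48 and 8.35 in the wild type control. The Sox9-null libraries lay below both control libraries, while the heterozygous ones straddled the control, with their second library the highest of all 12. The changes, -1.07 ± 0.39 (adjusted p = 0.114) for the Sox9-null and 0.51 ± 0.39 (adjusted p = 0.738) for the Sox9-heterozygous group, did not pass. With the deviations before the rescaling of spread the Sox9-null one passed (adjusted p = 0.0475). In the heterozygous groups the change differed between the experiments by -3.51 ± 0.55 (Mst minus YAP, adjusted p = 0.0274), 1 of the 9 genes to pass that test, where 0.0749% of all genes passed as lower. This call ended without the first wild type library (-3.07, adjusted p = 0.148), the second Sox9-heterozygous YAP library (-2.76, just above the threshold and 0.05 as rounded), either floxed control library (-3.50, 0.0589 and -3.52, 0.0552) or the second Sox9-heterozygous Mst library (-3.71, 0.0686), and also without a filter (0.305) and with a prior variance without a trend (0.126). Without either Sox9-heterozygous YAP library, which leaves the Sox9-null difference at -1.07, the adjusted p of that difference was 0.0295.

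Tsc22d3 encodes GILZ, a leucine zipper protein that carries part of the anti-inflammatory action of glucocorticoids and is among their best known direct targets. The gene lies on chromosome X, 140539528 to 140600659, minus strand. It stood at 1.95 and 3.53 log2 CPM in the Sox9-null Mst libraries and at 3.56 and 2.97 in the Sox9-heterozygous Mst libraries, against 5.89 and 4.99 in the floxed control. The mutant and control libraries did not overlap, although the Sox9-null libraries were 1.58 apart. Tsc22d3 fell by 2.70 ± 0.46 in the Sox9-null Mst group (6.51-fold lower, adjusted p = 0.00141) and fell by 2.17 ± 0.46 in the Sox9-heterozygous Mst group (4.51-fold lower, adjusted p = 0.0105). The Sox9-null call held in each alternative and omission run, and the Sox9-heterozygous call ended without the first floxed control library (-1.72, adjusted p = 0.125), without the second library of its own group (-1.88, 0.112) and without a filter (0.1).

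Under YAP S127A the levels of Tsc22d3 were 4.64 and 4.57 log2 CPM with both Sox9 alleles floxed and 5.36 and 5.03 with 1, against 4.92 and 5.98 in the wild type control. The Sox9-null libraries were below both controls and the heterozygous ones lay between them. The changes were -0.84 ± 0.46 (adjusted p = 0.316) and -0.26 ± 0.46 (adjusted p = 0.916). With the deviations before the rescaling of spread the Sox9-null one passed (adjusted p = 0.0218). The difference between the experiments in the heterozygous groups, -1.91 ± 0.64 (Mst minus YAP), had an adjusted p of 0.409. With the deviations before the rescaling of spread the adjusted p was 0.00925. The fall was thus not shown to be particular to the Mst mutants in the values as deposited, and that result depended on the rescaling.

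Fkbp5 encodes FKBP51, a chaperone that lowers the affinity of the glucocorticoid receptor for hormone and is itself induced by the receptor, which closes a feedback loop. The gene lies on chromosome 17, 28399094 to 28517527, minus strand. Its levels were 4.24 and 4.77 log2 CPM in the Sox9-null Mst libraries and 4.80 and 4.46 in the Sox9-heterozygous Mst libraries, against 5.73 and 5.54 in the floxed control. All 4 mutant libraries were lower than both controls. Fkbp5 fell in the Sox9-null Mst group (change -1.13 ± 0.30, 2.19-fold lower, adjusted p = 0.0303), and the change in the Sox9-heterozygous group was -1.0 ± 0.30 (adjusted p = 0.0796), which passed with only the groups compared (0.0175) and with the deviations before the rescaling of spread (0.00843). The call ended without either floxed control library (-1.04, adjusted p = 0.189 and -1.22, 0.0999) or the first library of its group (-0.86, 0.299), without a filter (0.111) and with a prior variance without a trend (0.0644). Under YAP S127A Fkbp5 was at 6.39 and 5.79 in the Sox9-null and 5.27 and 6.0 in the Sox9-heterozygous libraries, against 5.43 and 5.85 in the wild type control, with changes of 0.45 ± 0.30 and -0.01 ± 0.30 (adjusted p = 0.442 and 0.999). Here libraries of each group overlapped the control.

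Ddit4 encodes REDD1, an inhibitor of the growth kinase complex mTORC1 that is induced by glucocorticoids, low oxygen and energy stress. The gene lies on chromosome 10, 59949669 to 59951834, minus strand. It stood at 3.02 and 2.57 log2 CPM in the Sox9-null YAP libraries and at 4.18 and 6.0 in the Sox9-heterozygous YAP libraries, against 4.59 and 6.22 in the wild type control. Both Sox9-null libraries lay below every other library in the YAP experiment, and both other groups spread widely. Ddit4 fell in the Sox9-null YAP group by 2.60 ± 0.56 (6.08-fold lower, adjusted p = 0.00911), at rank 10 of 10681 from the lowest estimate. That call ended without the second wild type library (-1.79, adjusted p = 0.132), without the second Sox9-null library (-2.38, 0.114), with only the groups compared in the fit (0.0729) and without a filter (0.0843).

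The Mst experiment had Ddit4 at 3.17 and 4.27 log2 CPM in the Sox9-null and 4.09 and 3.89 in the Sox9-heterozygous libraries, against 5.82 and 4.99 in the floxed control. These groups did not overlap the control either. The changes, -1.69 ± 0.56 (adjusted p = 0.0837) and -1.42 ± 0.56 (adjusted p = 0.206), did not pass. The Sox9-null one passed without the second library of its group (-2.23, adjusted p = 0.0436) or without either Sox9-heterozygous YAP library (0.0449 and 0.0462). With only the groups compared in the fit the Sox9-null change had an adjusted p of 2.64e-06 and the Sox9-heterozygous one of 0.00269, and with the deviations before the rescaling 0.00574 and 0.0191.

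Ppargc1a encodes PGC-1alpha, a coactivator of gluconeogenesis, fatty acid oxidation and mitochondrial growth that glucagon induces in fasted liver through CREB. The gene lies on chromosome 5, 51454250 to 51567726, minus strand. Levels were 4.91 and 5.16 log2 CPM in the Sox9-null YAP libraries and 4.33 and 4.80 in the Sox9-heterozygous YAP libraries, against 3.60 and 3.73 in the wild type control. In the Mst experiment they were 5.11 and 4.71 with Sox9 null and 4.56 and 4.88 with 1 Sox9 allele floxed, against 3.64 and 3.71 in the floxed control. The lowest of the 8 activated libraries, at 4.33, lay above the highest of the 4 control libraries, at 3.73. Ppargc1a rose in the Sox9-null YAP group (change 1.37 ± 0.26, 2.58-fold, adjusted p = 0.00397), the Sox9-null Mst group (change 1.23 ± 0.26, 2.35-fold, adjusted p = 0.00739) and the Sox9-heterozygous Mst group (change 1.04 ± 0.26, 2.06-fold, adjusted p = 0.0321).

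For Ppargc1a in the Sox9-heterozygous YAP group the change was 0.90 ± 0.26 (adjusted p = 0.12), which did not pass. With the deviations before the rescaling of spread it passed (adjusted p = 0.00249). The Sox9-null YAP call ended without the second library of that group (1.24, adjusted p = 0.0568). The Sox9-null Mst call ended without the first library of that group (1.03, 0.128) or of the floxed control (1.20, 0.0655). The Sox9-heterozygous Mst call ended without either floxed control library (1.01, 0.169 and 1.08, 0.167) or the second library of its group (0.88, 0.311), after library medians were made equal (0.93, 0.0571), after quantile normalization (0.91, 0.0705), without a filter (0.0785) and with a prior variance without a trend (0.0558). Averaged over the 4 activated groups against both controls, the change of 1.135 ± 0.16 (2.2-fold, adjusted p = 0.000147) held in each alternative and omission run.

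Tat, G6pc and Igfbp1 stand for the output of the fasting programme. Tat encodes tyrosine aminotransferase, a classical glucocorticoid-induced enzyme of amino acid breakdown, G6pc the catalytic subunit of glucose-6-phosphatase, which releases glucose, and Igfbp1 a secreted binding protein of insulin-like growth factors that insulin represses. They lie on chromosome 8, 109990437 to 109999803, plus strand (Tat), and on chromosome 11, 101367561 to 101377903 and 7197782 to 7202546, plus strand (G6pc and Igfbp1). None of the 3 passed in any of the 6 comparisons within an experiment when all 12 libraries shared the estimate of spread. With only the groups compared in the fit, all 3 passed with Sox9 null after Mst deletion (adjusted p = 0.000545 for Tat, 0.00189 for G6pc and 4.49e-05 for Igfbp1) and Igfbp1 in the Sox9-heterozygous Mst group (0.00205). With the deviations as they were before the rescaling of spread, all 3 passed in the Sox9-null Mst group as well (0.000399, 0.00195 and 0.00108), and Tat and Igfbp1 in the Sox9-heterozygous Mst group (0.00269 and 0.00109) and the Sox9-null YAP group (0.00261 and 0.00459).

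Tat stood at 9.08 and 10.30 log2 CPM in the Sox9-null Mst libraries and 10.73 and 9.25 in the Sox9-heterozygous Mst libraries, against 11.05 and 11.32 in the floxed control. Its levels were 10.08 and 10.03 in the Sox9-null YAP libraries and 10.67 and 11.13 in the Sox9-heterozygous YAP libraries, against 10.62 and 11.75 in the wild type control. The Sox9-null YAP group and both Mst groups thus lay below the libraries of their control, and the heterozygous YAP group between them. The changes of Tat were -1.5 ± 0.51 (Sox9-null Mst, adjusted p = 0.0933), -1.20 ± 0.51 (Sox9-heterozygous Mst, 0.25), -1.13 ± 0.51 (Sox9-null YAP, 0.215) and -0.29 ± 0.51 (Sox9-heterozygous YAP, 0.917). The Sox9-null Mst change passed without the second library of its group (-2.10, adjusted p = 0.0385) or without either Sox9-heterozygous Mst library (0.0471 and 0.0499).

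Igfbp1 stood at 6.42 and 7.67 log2 CPM in the Sox9-null Mst libraries and 7.40 and 6.50 in the Sox9-heterozygous Mst libraries, against 8.58 and 8.23 in the floxed control. Its levels were 8.01 and 6.62 in the Sox9-null YAP libraries and 8.59 and 8.03 in the Sox9-heterozygous YAP libraries, against 7.62 and 9.16 in the wild type control. Both Mst groups lay below their control, and both YAP groups overlapped theirs. Its changes were -1.36 ± 0.52 (Sox9-null Mst, adjusted p = 0.15), -1.46 ± 0.52 (Sox9-heterozygous Mst, 0.159), -1.08 ± 0.52 (Sox9-null YAP, 0.256) and -0.09 ± 0.52 (Sox9-heterozygous YAP, 0.984). The Sox9-null Mst change passed without the second library of that group (-1.98, adjusted p = 0.0497).

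G6pc stood at 7.71 and 9.05 log2 CPM in the Sox9-null Mst libraries and 9.53 and 8.63 in the Sox9-heterozygous Mst libraries, against 9.75 and 9.34 in the floxed control. Its levels were 9.77 and 8.78 in the Sox9-null YAP libraries and 9.90 and 9.99 in the Sox9-heterozygous YAP libraries, against 8.73 and 10.28 in the wild type control. Only the Sox9-null Mst libraries were clear of their control. The changes of G6pc were -1.16 ± 0.51 (Sox9-null Mst, adjusted p = 0.211), -0.47 ± 0.51 (Sox9-heterozygous Mst, 0.743), -0.23 ± 0.51 (Sox9-null YAP, 0.861) and 0.44 ± 0.51 (Sox9-heterozygous YAP, 0.845).

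**Figure D2:**
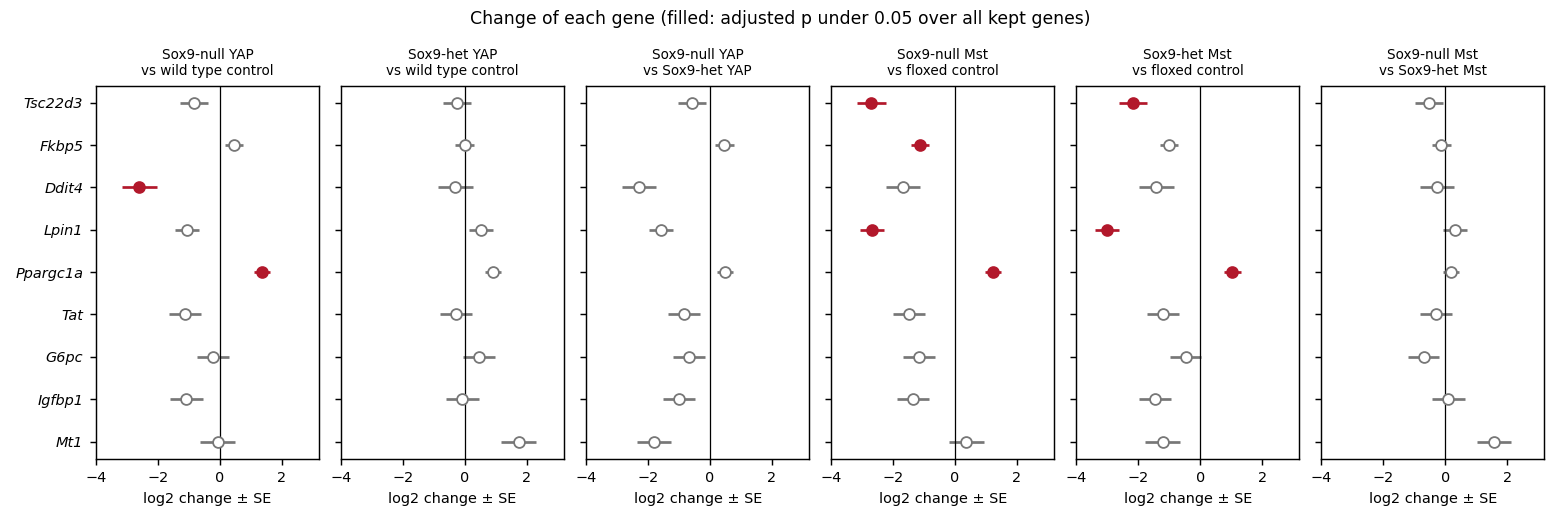
Log2 change ± SE of each gene (x axes) in the 6 comparisons within an experiment, as the first-named group of each title minus the second; filled points have a limma adjusted p under 0.05. Filled points are Ddit4 and Ppargc1a in the Sox9-null YAP group, Tsc22d3, Fkbp5, Lpin1 and Ppargc1a in the Sox9-null Mst group, and Tsc22d3, Lpin1 and Ppargc1a in the Sox9-heterozygous Mst group, and there are none between the Sox9-null and Sox9-heterozygous groups.

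Mt1 encodes metallothionein 1, a small protein that binds zinc and copper and is induced by metals, glucocorticoids and the acute phase response. The gene lies on chromosome 8, 94179082 to 94180327, plus strand. It stood at 7.66 and 6.52 log2 CPM in the Sox9-null YAP libraries and at 7.74 and 10.06 in the Sox9-heterozygous YAP libraries, against 6.91 and 7.42 in the wild type control. The second Sox9-heterozygous library, at 1060 CPM, was far above every other library, the next being at 220 CPM. The change of Mt1 in that group, 1.73 ± 0.56 (3.32-fold, adjusted p = 0.182), did not pass, and without its first library, which leaves the high one, it was 2.89 (adjusted p = 0.00943). Without the high library it was 0.57.

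Other genes of the acute phase were high in the same library as Mt1. The 13 acute phase genes with a value, among them Lcn2, Steap4, Hp and Orm1, summed to 36200 CPM there, against 11000 to 17100 in the other 11 libraries. All 13 had a positive change in the Sox9-heterozygous YAP group, with a median of 0.62, and Lcn2 (2.27 ± 0.52, adjusted p = 0.0389) and Steap4 (2.33 ± 0.51, adjusted p = 0.0295) rose. That is 2 of 13, where 1.4% of all genes were called higher. The part of the acute phase genes in the level of Mt1 was not tested. Of 9 other genes of metal handling 0 passed in this comparison.

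In the Mst experiment Mt1 stood at 7.78 and 7.26 log2 CPM in the Sox9-null libraries and 5.46 and 6.44 in the Sox9-heterozygous libraries, against 7.37 and 6.94 in the floxed control. The heterozygous libraries were the lowest of all 12, and the Sox9-null ones overlapped the control. The changes of 0.36 ± 0.56 (adjusted p = 0.814) and -1.21 ± 0.56 (adjusted p = 0.301) did not pass. Between the experiments the change in the heterozygous groups differed by -2.94 ± 0.79 (Mst minus YAP, adjusted p = 0.244), which became -4.10 (adjusted p = 0.0142) without the first Sox9-heterozygous YAP library.

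**Figure D3:**
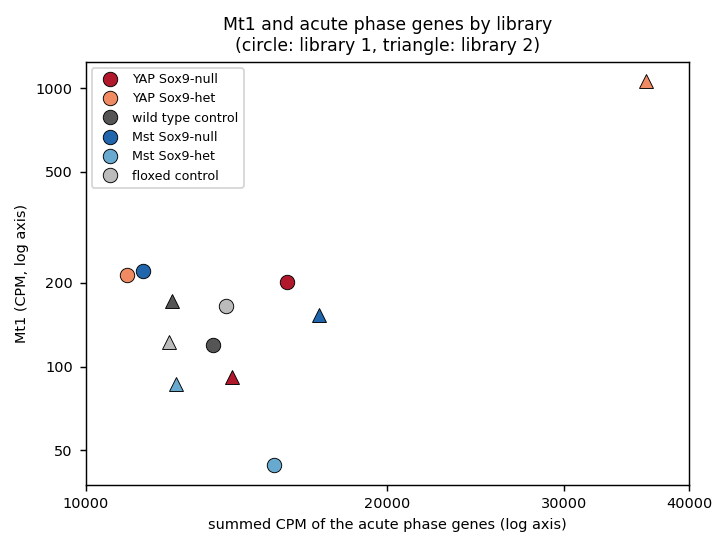
Level of Mt1 in CPM (y axis, log scale) against the summed CPM of the 13 acute phase genes (x axis, log scale) in each of the 12 libraries; colours are groups, circles the first and triangles the second library. The second Sox9-heterozygous YAP library stands alone at 1060 CPM of Mt1 and a sum of 36200, and the other 11 lie between 44.2 and 220 CPM of Mt1 and sums of 11000 to 17100.

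Between the Sox9-null and the Sox9-heterozygous groups 0 of the 9 genes passed in either experiment by limma. Under YAP S127A 0.169% of all genes passed, and 3 of the 9 had an unadjusted p under 0.05, as had 707 of the 10681 genes. After Mst deletion 0.0468% passed, and 1 of the 9 and 629 of all genes had such a p. Under YAP S127A the estimates were nonetheless large for Ddit4 (-2.29 ± 0.56, adjusted p = 0.205), Lpin1 (-1.57 ± 0.39, 0.205) and Mt1 (-1.81 ± 0.56, 0.396), Sox9-null minus Sox9-heterozygous. Each passed without the first Sox9-heterozygous YAP library (Ddit4 -3.20, adjusted p = 0.019; Lpin1 -2.32, 0.00579; Mt1 -2.96, 0.00859). Without the second library of that group they were -1.38, -0.83 and -0.65. Those libraries stand 1.82, 1.5 and 2.32 apart in these 3 genes. Sox9-null and Sox9-heterozygous YAP libraries did not overlap in any of the 9 genes but Fkbp5. The share of all genes without overlap was not counted. Before the rescaling of spread, Ddit4 (limma adjusted p = 0.00739), Lpin1 (0.0339), Igfbp1 (0.03) and Tat (0.0464) passed under YAP S127A.

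After Mst deletion the same comparison gave -0.27 ± 0.56 for Ddit4, 0.32 ± 0.39 for Lpin1 and 1.57 ± 0.56 for Mt1 (adjusted p = 1, 1 and 0.691). The Mt1 libraries did not overlap, and those of Ddit4 and Lpin1 did. The difference of the Sox9 effect between the experiments (Mst minus YAP) was 2.02 ± 0.79 for Ddit4, 1.90 ± 0.55 for Lpin1 and 3.38 ± 0.79 for Mt1, the last being the highest estimate of the 10681 genes, with adjusted p of 1, 1 and 0.483, and 0% of all genes passed. Without the first Sox9-heterozygous YAP library Lpin1 (2.64, adjusted p = 0.0387) and Mt1 (4.53, 0.0107) passed. Over both experiments together Sox9 loss gave -1.28 ± 0.39 for Ddit4 (adjusted p = 0.298) and -0.63 ± 0.27 for Lpin1 (0.501), with 0 of the 9 genes and 0.131% of all genes passing, and 2 of the 9 and 1008 of all genes at an unadjusted p under 0.05. Before the rescaling of spread, Ddit4 (limma adjusted p = 0.0157), G6pc (0.0209) and Tat (0.0401) passed for Sox9 loss over both experiments.

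Averaged over the 4 activated groups against both controls, Lpin1 (-1.56 ± 0.24, 2.95-fold lower, adjusted p = 0.00029), Tsc22d3 (-1.49 ± 0.28, 2.82-fold lower, adjusted p = 0.00167), Ddit4 (-1.5 ± 0.34, 2.84-fold lower, adjusted p = 0.00696) and Tat (-1.03 ± 0.31, 2.04-fold lower, adjusted p = 0.0378) fell, and Ppargc1a rose as given above. That is 4 lower and 1 higher of 9, where 1.49% and 12.3% of all genes passed. Of all calls 89.2% were higher as deposited, and 67% or 66.4% with library medians made equal or quantile normalization, under which the same number of the 9 genes, 7, had a negative change. Igfbp1 (-1.0 ± 0.32, adjusted p = 0.0509), Fkbp5 (-0.42 ± 0.18, 0.154), G6pc (-0.35 ± 0.31, 0.519) and Mt1 (0.20 ± 0.34, 0.764) did not pass. Library by library, 7 of 8 activated libraries were below all 4 controls for Ddit4, 6 for Tsc22d3 and for Lpin1, 5 for Tat and for Fkbp5, 4 for Igfbp1, 3 for Mt1 and 2 for G6pc, while 4 lay above all controls for Mt1, 2 for Fkbp5 and 1 for Lpin1. Since the same 4 control libraries enter each of these counts, they are not independent.

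The call of Ddit4 in this average ended without the second wild type library (-1.10, adjusted p = 0.0696) and without a filter (0.0609). That of Tat ended with 8 of the 12 libraries left out in turn (-1.09 to -0.74, highest adjusted p 0.212, without the second wild type library), without a filter (0.138) and with a prior variance without a trend (0.0539). Igfbp1 passed after library medians were made equal (-1.17, adjusted p = 0.0301), after quantile normalization (-1.10, 0.0465) and without any of 4 libraries, the lowest being 0.0139 without the second Sox9-null Mst library.

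Ordered by group mean, Tsc22d3, Ddit4, Tat and Igfbp1 were highest in the controls, Lpin1, G6pc and Mt1 in the Sox9-heterozygous YAP group, and Fkbp5 and Ppargc1a in the Sox9-null YAP group. Tsc22d3, Fkbp5, Tat and G6pc were lowest in the Sox9-null Mst group, Lpin1, Igfbp1 and Mt1 in the Sox9-heterozygous Mst group, Ddit4 in the Sox9-null YAP group and Ppargc1a in the controls. The controls have no order between them, since their means are equalised. Most neighbours in these orders overlapped in their libraries. The steps without overlap lay on either side of the Sox9-null YAP group for Tsc22d3 and Lpin1, whose order put that group between the controls and the Mst groups. For Ddit4 they lay above both Mst groups and above the Sox9-null YAP group, for Tat and Igfbp1 just above the Sox9-null YAP group, and for Fkbp5 between the floxed control and the Mst groups. For Ppargc1a the step lay just above the controls, for G6pc below the Sox9-heterozygous YAP group and for Mt1 above the Sox9-heterozygous Mst group.

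These genes also varied together between the libraries of a group. The differences below are as deposited and hold the factor on the spread of each gene. That factor ran from 0.892 to 2.91 for the 9 genes, with a median of 1.58 over the kept genes. The first wild type library was lower than the second in all 9 genes, with a median difference of 1.06, where the median difference over all genes was 0.277. In the Sox9-null Mst group the median difference was 1.10 for the 9 genes and 0.285 for all, with 6 of 9 lower in the first library. The other groups had 0.451 against 0.305 (Sox9-null YAP), 0.552 against 0.418 (Sox9-heterozygous YAP), 0.589 against 0.354 (Sox9-heterozygous Mst) and 0.349 against 0.266 (floxed control).

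Taking G6pc as the marker, the library with the lower G6pc also had the lower Fkbp5 and Ddit4 in 6 of 6 groups, the lower Tsc22d3, Tat and Igfbp1 in 5, the lower Lpin1 and Mt1 in 4 and the lower Ppargc1a in 2. Within groups the deviations of G6pc and Igfbp1 had a Pearson r of 0.959 over the 12 libraries, those of Ppargc1a and Igfbp1 one of -0.601. These are descriptions only: the 2 deviations of a group mirror each other, and in the Mst experiment first and second libraries had been given equal means gene by gene, which ties its groups together. G6pc, Igfbp1 and Tat thus lay 1.14 to 1.54 log2 apart between the wild type libraries and 1.22 to 1.34 between the Sox9-null Mst libraries. Their largest change from a control was -1.5, and across both experiments the group means of G6pc ranged over 1.565. The gaps hold the factor on the spread and a change of group means does not, so they are not like for like.

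**Figure D4:**
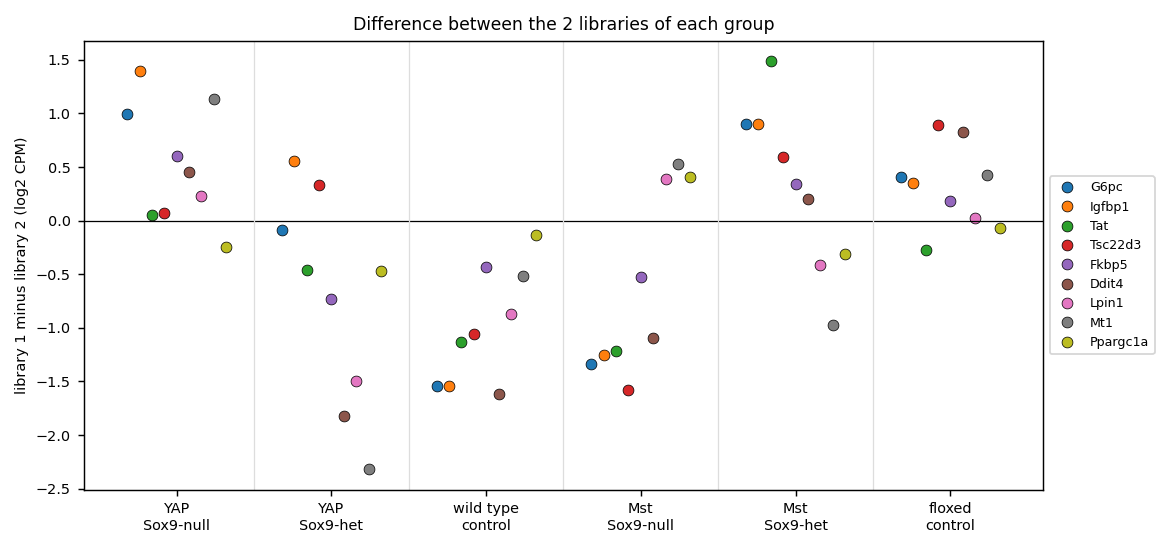
Difference in log2 CPM between the first and second library of each group (y axis) for the 9 genes (colours). In the wild type control all 9 points lie below 0, in the Sox9-null YAP group 8 of 9 lie above 0, and Mt1, Ddit4 and Lpin1 lie lowest in the Sox9-heterozygous YAP group at -2.32, -1.82 and -1.5.

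Genes that feeding and insulin induce differed between libraries as well. The 14 of them reported here, which include the lipogenic enzymes Fasn, Acaca and Scd1 and the transcription factor gene Srebf1, summed to 20000 and 23800 CPM in the Sox9-null YAP libraries and 16200 and 6950 in the Sox9-heterozygous YAP libraries, against 11100 and 3510 in the wild type control. In the Mst experiment they summed to 13700 and 9630 with Sox9 null and 12500 and 9130 with 1 Sox9 allele floxed, against 4510 and 7290 in the floxed control. In 5 of 6 groups the library with the lower level of most of the 9 glucocorticoid and fasting genes had the higher sum, the exception being the Sox9-heterozygous Mst group. The sum rests on the most abundant of the 14 genes: their median level went the other way in the wild type control (7.35 and 7.68 log2 CPM) and in the Sox9-null Mst group (7.11 and 7.55). Of the 14 genes 4 rose in the Sox9-null YAP group, namely Pnpla3 (1.98 ± 0.47, adjusted p = 0.0168), a lipid droplet protein gene, Fasn (1.43 ± 0.35, 0.0203), Me1 (1.41 ± 0.31, 0.00985) and Acaca (1.41 ± 0.39, 0.0389), and 0 fell, with a median change of 0.52, where 6.64% of all genes were called higher. Pnpla3 lay at 0.01 to 0.71 log2 CPM in the wild type control and 0.27 to 0.45 in the floxed control. It thus passed the filter only through activated libraries. In the Sox9-heterozygous Mst group Elovl6, a fatty acid elongase gene, rose (1.57 ± 0.41, adjusted p = 0.0392), and 0 passed in the other 2 groups. Of all genes 3.45% were called higher in the Sox9-heterozygous Mst group.

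Of 22 other fasting-induced genes, 2 rose and 0 fell in the Sox9-null YAP group, 1 rose and 0 fell in the Sox9-heterozygous YAP group, 1 rose and 1 fell among them in the Sox9-null Mst group, and 1 rose and 0 fell in the Sox9-heterozygous Mst group. Of all genes 6.64%, 1.4%, 6.88% and 3.45% were called higher in these 4 groups, and 0.88% lower in the third. Vnn1, a pantetheinase gene that PPARalpha induces, was the one that rose in each, by 2.99 ± 0.34 (adjusted p = 4.14e-05), 1.41 ± 0.34 (0.0472), 2.41 ± 0.34 (0.000264) and 1.96 ± 0.34 (0.00238) in the same order. The hepatic hormone gene Fgf21 also rose in the Sox9-null YAP group (change 2.44 ± 0.57, adjusted p = 0.0162), and Got1, aspartate aminotransferase, fell in the Sox9-null Mst group (change -1.91 ± 0.41, adjusted p = 0.00767). The median change of the list was -0.38 in the Sox9-null Mst group, -0.13 in the Sox9-heterozygous Mst group, 0.22 in the Sox9-null YAP group and 0.01 in the Sox9-heterozygous YAP group. Pck1, the rate-limiting gluconeogenic enzyme, did not pass, with changes of -1.49 ± 0.58 (adjusted p = 0.152) with Sox9 null after Mst deletion and -0.98 ± 0.58 (0.363) with Sox9 null under YAP S127A.

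The glucocorticoid receptor gene Nr3c1 did not pass in any of the 4 groups. Its mean was 6.83 log2 CPM in the Sox9-null YAP group and 6.66 in the Sox9-heterozygous YAP group, against 6.62 in the wild type control, and 6.59 and 6.61 in the Sox9-null and Sox9-heterozygous Mst groups, against 6.61 in the floxed control. Its changes from the controls lay between -0.02 and 0.21, each with an SE of 0.24. Of the 11 genes for the receptor, its chaperones and cofactors and the handling of steroids, Srd5a1, a steroid reductase gene, rose in the Sox9-heterozygous Mst group (change 1.34 ± 0.34, adjusted p = 0.0333), and 0 passed in the other 3 groups. In the Sox9-heterozygous Mst group 3.45% of all genes were called higher. Hsd11b1 encodes the enzyme that regenerates active glucocorticoid within hepatocytes. Its level averaged 7.62 log2 CPM in the Sox9-null and 7.56 in the Sox9-heterozygous Mst group, against 8.84 in the floxed control, with changes of -1.22 ± 0.39 (adjusted p = 0.0713) and -1.28 ± 0.39 (adjusted p = 0.083), and it was lower over all activated groups (-0.75 ± 0.24, adjusted p = 0.0465). That is 1 of the 11 genes, where 1.49% of all genes were called lower. In the YAP experiment its means were 8.53 (Sox9-null) and 8.55 (Sox9-heterozygous), against 8.80 in the wild type control, with overlapping libraries.

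Of 18 other glucocorticoid receptor targets few passed. Cdkn1a, the cell cycle inhibitor p21, rose in the Sox9-null YAP group (change 1.78 ± 0.38, adjusted p = 0.00934) and in the Sox9-heterozygous YAP group (change 1.68 ± 0.38, adjusted p = 0.0367), and the repressor gene Bcl6 rose in the Sox9-heterozygous Mst group (change 2.60 ± 0.63, adjusted p = 0.0284). The shares of all genes called higher were 6.64%, 1.4% and 3.45% there. None of the 18 passed in the Sox9-null Mst group, and none fell in any of the 4 groups. Over all activated groups Cebpd (-1.11 ± 0.30, adjusted p = 0.0203) and Errfi1 (-0.77 ± 0.24, adjusted p = 0.0453) fell and Cdkn1a rose (1.02 ± 0.23, adjusted p = 0.00742). That is 2 lower and 1 higher of 18, where 1.49% and 12.3% of all genes passed. In the same average 5 of the 14 feeding and insulin genes rose and 0 fell. Of the 22 other fasting-induced genes 2 rose and 2 fell there. The medians of the 18 receptor targets were -0.37 in the Sox9-null Mst group, -0.32 in the Sox9-heterozygous Mst group, -0.33 in the Sox9-null YAP group and -0.07 in the Sox9-heterozygous YAP group.

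Genes that respond to stress or to handling of cells moved in other ways. Of 16 immediate early genes, which cells switch on within minutes of a stimulus, Fos (-2.19 ± 0.45, adjusted p = 0.00676), Egr1 (-3.11 ± 0.29, 8.76e-06) and Ier2 (-1.21 ± 0.31, 0.0251) fell in the Sox9-null YAP group, where Ddit4 was lowest, and Klf6 (1.78 ± 0.32, 0.00242) and Myc (1.68 ± 0.30, 0.00236) rose. In the Sox9-null Mst group 3 rose and 0 fell, namely Klf6 (4.48 ± 0.32, limma adjusted p = 4.67e-07), Myc (1.56 ± 0.30, 0.00358) and Atf3, which is counted below too. In the Sox9-heterozygous Mst group 2 rose and 0 fell, namely Klf6 (3.72 ± 0.32, 6.4e-06) and Egr1 (1.11 ± 0.29, 0.044). These counts stand against the 0.477% lower and 6.64% higher of all genes in the Sox9-null YAP group and the 6.88% and 3.45% higher in the Mst groups. The list summed to 923 and 754 CPM in the Sox9-null and 1640 and 1180 in the Sox9-heterozygous YAP libraries, against 1310 and 1360 in the wild type control, and to 3480 and 2120 CPM in the Sox9-null and 2050 and 2280 in the Sox9-heterozygous Mst libraries, against 1050 and 1520 in the floxed control. Of 10 genes that ATF4 and DDIT3 induce under stress, Psat1 (2.14 ± 0.42, adjusted p = 0.00483) and Vldlr (1.84 ± 0.49, 0.0335) rose in the Sox9-null YAP group, Atf3 rose in the Sox9-null Mst group (2.29 ± 0.60, 0.0261), and Chac1 fell in the Sox9-heterozygous Mst group (-1.97 ± 0.41, 0.0101). The same shares of all genes stand beside these calls, with 0.796% called lower in the Sox9-heterozygous Mst group. The part of either list in the changes of Ddit4 or Tsc22d3 was not tested.

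Across the 12 libraries the genes most like Tsc22d3 were Noct, a clock-linked phosphatase gene (Pearson r = 0.97), Nkiras1 (0.932) and Slc25a51 (0.924). Those most like Lpin1 were Cdip1 (0.973), the amino acid transporter gene Slc38a2 (0.948) and Oat, ornithine aminotransferase (0.942). Ddit4 was most like Ppp1r10 (0.967), Errfi1 (0.898), which is also on the list of receptor targets, and Gadd45g (0.892), and Fkbp5 was most like Igf2bp2 (0.938), Dnajc11 (0.929) and Ppp1r15b (0.928). For Ppargc1a they were Npc2 and Pik3ap1 (both 0.975) and Cd63 (0.967). These are the 3 highest of all kept genes for each and are descriptions over libraries that share their scale and processing. Among the 9 genes themselves r was highest for Igfbp1 with Tat (0.869) and with G6pc (0.867), and Ppargc1a had a negative r with Igfbp1 (-0.703), Tat (-0.731), Ddit4 (-0.7) and Tsc22d3 (-0.674).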

How the data were processed

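RNA of sorted mouse liver cells was measured with an Ion AmpliSeq transcriptome panel on an Ion GeneStudio S5 Plus, per the labels' protocols. The deposited table holds log2 CPM, which the authors' labels call RPM. Aligner, counter, genome build and read depth were not given in the sources used here, and the amplicon of each gene is not named. Levels are therefore not compared between genes. The file shows that control means were made equal (98.9% of kept genes within 0.05 log2) and, in the Mst experiment, the means of first and second libraries (99.9%), and that deviations within groups carry a factor per gene (median 1.58).

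The filter (log2 of 1 or more in 2 or more libraries) left 10681 of 16116 symbols. One model of 6 group means over 12 libraries was fitted with limma 3.58.1 in R 4.3.3 (eBayes with a trend, two-sided, Benjamini-Hochberg adjustment over all kept genes, threshold 0.05), which was tested on simulated data. Of 10 comparisons, 6 lie within an experiment and 4 combine or contrast the experiments. With 2 libraries per group the precision is limited, and intervals of counting error cannot be given without depth. Alternatives were 2 scalings, 2 filters, a block for the replicate number, a fit of only the groups compared, deviations without the factor, a prior without a trend and leaving out each library. The members and the gene lists were chosen with earlier results of these data known. The text names all members, some but not all of the genes that passed in the further lists, and the 3 genes most correlated with each member that passed. Pck1, Nr3c1 and Hsd11b1 are named for their roles. Positions are from GENCODE M21 (GRCm38), promoters from RefSeq (GRCm38.p6). Mt2 was not analysed here, and 1 gene of the list of feeding-induced genes is not reported here.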

Additional observations from a re-analysis of the deposited data

Results flagged for a closer look

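The change of Lpin1 in the Sox9-heterozygous Mst group from the floxed control differed from its change in the Sox9-heterozygous YAP group from the wild type control by -3.51 ± 0.55 on the log2 scale (11.4-fold, limma adjusted p = 0.0274), by a test of the difference itself. Lpin1 was at 26.6 and 35.3 CPM in the Sox9-heterozygous Mst libraries, against 247 and 243 CPM in the floxed control, and at 204 and 576 CPM in the Sox9-heterozygous YAP libraries, against 179 and 326 CPM in the wild type control. Leaving out single libraries gave differences from -4.26 to -2.76, with adjusted p from 0.00154 to 0.148.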

How the results depend on the processing

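Of 1800 results of single members over all alternatives, 1694 kept their side of the threshold and 0 called values changed sign; with the stricter filter (log2 of at least 3) 90 of 90 did. Lpin1 in both Mst groups, Tsc22d3 in the Sox9-null Mst group and the averages of Lpin1, Tsc22d3 and Ppargc1a over all activated groups kept their calls throughout. The causes of the changes below were not tested.

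Counts of genes called follow, members in brackets, for the Sox9-null YAP group (760 genes [2] as reported), the Sox9-heterozygous YAP group (168 [0]), the Sox9-null Mst group (829 [4]), the Sox9-heterozygous Mst group (454 [3]), Sox9-null against Sox9-heterozygous under YAP S127A (18 [0]) and after Mst deletion (5 [0]), all activated groups (1477 [5]), Sox9 loss over both experiments (14 [0]), the difference in activation (21 [1]) and the difference in Sox9 loss (0 [0]). With library medians made equal the Sox9-null YAP count was 484, and with quantile normalization 449; these scalings moved the median change of all genes from 0.21 to -0.06 and -0.08 there, from 0.17 to -0.07 and -0.08 in the Sox9-null Mst group and from 0.125 to -0.05 and -0.07 over all activated groups. Without a filter the counts were 369 [1], 72, 416, 189 [1], 5, 2 and, for Sox9 loss and the difference in activation, 5 and 3 [0], with 3 members over all activated groups. With only the groups compared in the fit they were 297 [1] and 44 under YAP S127A, 1668 [8] and 860 [7] after Mst deletion and 4 for Sox9-null against Sox9-heterozygous under YAP S127A. A prior without a trend gave 6 for that comparison, 8 for Sox9 loss and 3 [0] for the difference in activation. With deviations before the rescaling, in the order first given, they were 2960 [6], 1237 [1], 2815 [8], 2118 [7], 476 [4], 193, 3842 [8], 836 [3], 636 [3] and 63.

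Leaving out each library in turn gave 326 to 1003 genes [0 to 3 members], 92 to 290 [0 to 1], 347 to 980 [2 to 7], 189 to 525 [1 to 3], 4 to 127 [0 to 3], 3 to 21 [0 to 0], 978 to 1954 [3 to 6], 6 to 120 [0 to 2], 0 to 39 [0 to 2] and 0 to 18 [0 to 2], in the same order. The largest number of new member calls, 11, came without the first Sox9-heterozygous YAP library. The lone library left in a group is then assumed to vary like the other groups.

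Same-numbered libraries did not deviate together (r of -0.0627, -0.117 and -0.0981 in the YAP experiment, and -0.315, -0.521 and -0.644 in the Mst experiment, where the equalised means force a negative r), so the numbers were not taken as pairs. The replicate block gave 39 genes [2 members, Ddit4 at an adjusted p of 0.0077 and Lpin1 at 0.0295] for Sox9-null against Sox9-heterozygous under YAP S127A, 41 for Sox9 loss, 35 [2] for the difference in activation, 5 [1] for the difference in Sox9 loss and 1 member in the Sox9-heterozygous YAP group (Mt1, 0.0497). With it Ddit4 passed in the Sox9-null Mst group (0.0133) and Igfbp1 over all activated groups (0.0176), and Ppargc1a did not pass in the Sox9-heterozygous Mst group (0.0666). A crossed block, chosen after seeing the data, gave 261 genes in the Sox9-heterozygous YAP group and 8 for Sox9-null against Sox9-heterozygous after Mst deletion.

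With 2 libraries a group, a value near the filter or with a wide spread, such as G6pc at an SE of 0.51, leaves changes of its own size unresolved.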
